A study of Mus musculus with 12 samples.

Results

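The elements described here are mouse repeats of the ERV1 family whose names do not begin with MuLV, MuRRS, MMVL30, LTRIS, RLTR4, RLTR6, RLTR10, IAP or ERVB, so that the murine leukemia virus, VL30 and RLTR4, RLTR6 and RLTR10 elements are left out. The prefix RLTR4 also removes the names RLTR41, RLTR47 and RLTR48. The rule uses names only, and it gave 116 repeat subfamilies of 1528 and 9714 single repeat loci of 781935. All samples were testes of 3-month-old C57BL/6 mice that carried the Mael-/- genotype, so no library shows the repeats with piRNA silencing intact. TOTAL was the clarified testis extract, treated with EDTA and loaded on sucrose gradients. INPUT was the pool of gradient fractions 5 to 8, IP was the anti-L1 ORF1p co-immunoprecipitate made from that pool, and BO was the same pool incubated with beads without antibody. Each group had 3 libraries, 12 in all, of rRNA-depleted total RNA. The comparisons ask which repeat RNAs were recovered with ORF1p above the bead background, above the material offered to the beads, and above the whole extract.

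ERV1 elements are descended from gammaretrovirus-like proviruses. A complete copy has an internal part, which once coded for gag, pro, pol and often env, between 2 identical long terminal repeats (LTRs) that hold the promoter and the polyadenylation site, but recombination between the LTRs has left most insertions as solitary LTRs. The repeat annotation names the internal part and the LTR separately, so reads on an internal part (names that end in -int) come from proviral sequence and reads on an LTR may come from proviruses or from solitary LTRs. MMERGLN is a mouse family named for a glutamine tRNA primer, and MURVY is a retroviral repeat amplified on the mouse Y chromosome. MER and most LTR names belong to older families. Maelstrom acts in the piRNA pathway, which silences retrotransposons in male germ cells. ORF1p is the RNA-binding protein encoded by LINE-1, a retrotransposon without LTRs that is not related to ERV1.

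By name, the 116 subfamilies comprised 22 internal parts, 8 MMERGLN and RLTR1 LTRs, 18 other rodent LTRs and 68 other LTRs, with 1622, 663, 3867 and 3562 listed loci. Normalized counts averaged at least 10 over the 12 libraries for 78 subfamilies, which were tested. The other 38 had means between 0.186 and 9.96, never passed 23.5 in a library, and comprised 7 internal parts, 2 MMERGLN or RLTR1 LTRs and 29 other LTRs. Reads recovered on all subfamilies numbered 6021800 to 7282171 per TOTAL library, 3045169 to 3880641 per INPUT library, 1712212 to 3512997 per BO library and 1384904 to 2003193 per IP library. ERV1 reads numbered 18684 to 33922 in TOTAL, 21823 to 26917 in INPUT, 11650 to 29300 in BO and 14392 to 21315 in IP. They were 0.307 to 0.466% of subfamily reads in TOTAL, 0.694 to 0.717% in INPUT, 0.416 to 0.867% in BO and 1.04 to 1.06% in IP. The share held by 7SL RNA moved the other way between TOTAL and IP, with 38.1 to 51.6% in TOTAL, 17.0 to 18.7% in INPUT and 1.16 to 1.63% in IP, and was at most 0.224% in BO. In BO replicate 3, 52.1% of reads were on the rRNA repeat LSU-rRNA_Hsa, and results were also computed without it.

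After the upper quartile normalization, the summed ERV1 count was nearly level across the groups. It was 20577 ± 380 in TOTAL, 20480 ± 126 in INPUT, 18753 ± 531 in BO and 20901 ± 233 in IP (SD, n = 3). The 10 highest subfamilies held between 52.3% and 55.2% of this sum in each group. Internal parts summed to 6524 ± 337 in IP, against 5423 ± 70.2 in INPUT, 5544 ± 153 in TOTAL and 4719 ± 72.2 in BO (SD, n = 3). The lowest IP library, at 6303, was above the highest library of the other groups, a TOTAL library at 5719. The sum of MMERGLN and RLTR1 LTRs went the other way, with 938 ± 6.11 in IP and 1032 ± 59.9 in BO, 1061 ± 59.8 in TOTAL and 1074 ± 78.8 in INPUT. The highest IP library of this sum, at 944, was below the lowest of all others, a BO library at 977. The single LTRs did not share that direction: of the 6 tested, 3 were higher in IP than in BO, with a median log2 fold change of 0.05. RLTR1C had means of 194 in IP and 324 in BO, and RLTR1D2_MM had 96.5 in IP and 69.6 in BO.

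Few ERV1 subfamilies passed the test, which required a log2 fold change past 1 in size and an adjusted p under 0.05 from limma over all 1180 subfamilies tested. IP libraries were compared with each other group, so the 3 comparisons share the IP libraries. Against BO, 6 of 78 were higher in IP, beside 5.08% of all subfamilies tested, and 1 was lower, beside 3.81%. Against INPUT, 5 were higher, beside 3.22%, and 2 were lower, beside 2.88%. Scaling to library totals changed the counts against INPUT to 11 higher, beside 10.7%, and 0 lower, beside 1.52%. Only 2 were higher than INPUT without replicate 2, beside 1.61%, and 2 without replicate 3, beside 2.63%. Against TOTAL, 1 was higher, beside 2.88%, and 4 were lower, beside 3.47%. With libraries scaled to their totals, that comparison gave 62 higher, beside 85.9% of all subfamilies, and 0 lower, beside 1.44%, around a median log2 fold change of 1.49. With counts this small, the shares of ERV1 subfamilies called were near those of all repeats. Members had a median log2 fold change of -0.05 over BO, -0.14 over INPUT and -0.09 over TOTAL, beside -0.12, -0.06 and -0.05 over all subfamilies tested. Of 78 members, 63 (80.8%) were called in none of the 5 comparisons that were fitted, beside 84.6% of all subfamilies tested. For context, 4 of 130 LINE-1 subfamilies were higher in IP than in BO, among them L1Md_T, L1Md_A and L1Md_Gf, the young mouse families.

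**Figure D1:**
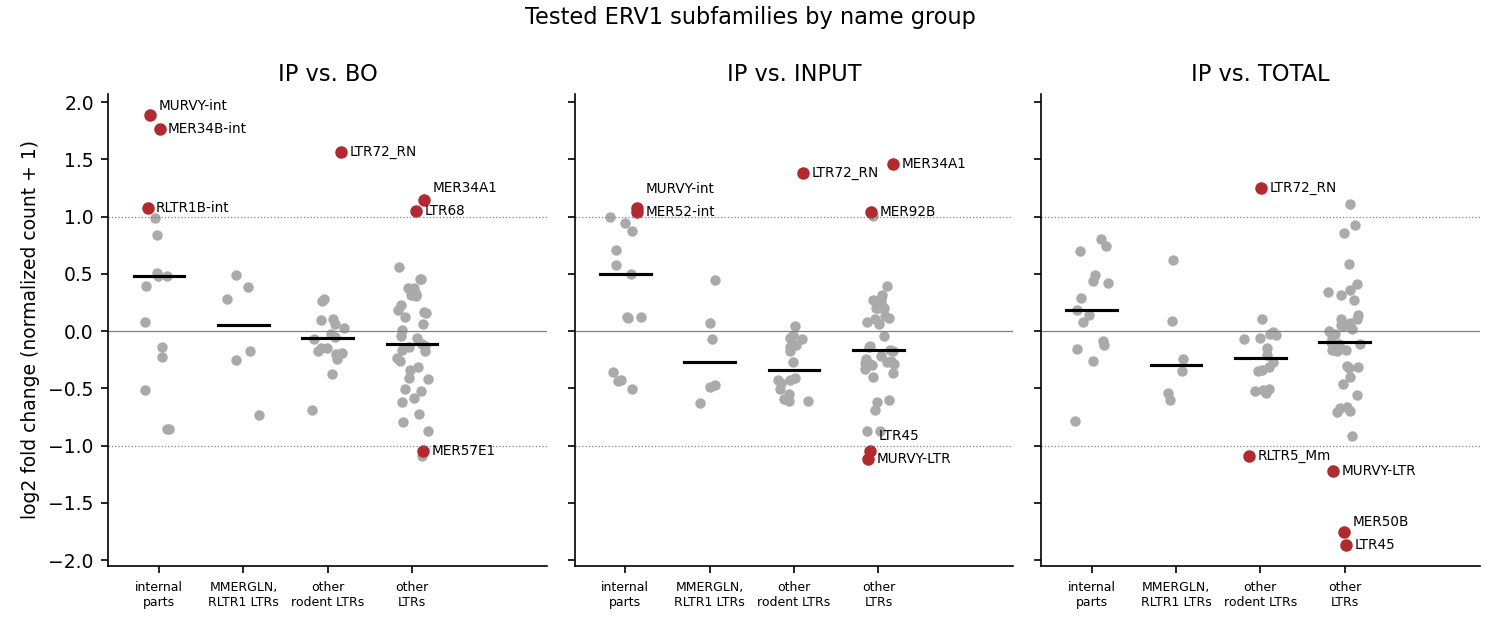
Log2 fold changes of IP over BO, INPUT and TOTAL for the 78 tested ERV1 subfamilies, on the log2 scale of the normalized count plus 1, by name group. Each point is a subfamily, red points with names were called, black bars are medians and dotted lines mark a log2 fold change of 1 and -1. The median of the 15 internal parts lies at 0.48 and 0.49 in the comparisons with BO and INPUT, while the medians of the LTR groups lie between -0.34 and 0.05 in those comparisons.

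The 15 internal parts tested had the highest median of the name groups. At the median, their IP counts were higher by 0.48 (log2) than BO, by 0.49 than INPUT and by 0.19 than TOTAL. The medians of the other groups in the same comparisons lay between -0.34 and 0.05. Past both thresholds, 3 internal parts were higher in IP than in BO (MURVY-int, MER34B-int and RLTR1B-int), 2 were higher than in INPUT (MURVY-int and MER52-int), and none was higher than in TOTAL by limma. By the adjusted p alone, 7 of the 15 were higher and 1 was lower against BO, where 12 and 9 of the 78 members and 11.3% and 23.2% of all subfamilies were. Against INPUT, 6 internal parts were higher and 1 was lower, where 9 and 14 members and 11% and 16.7% of all subfamilies were. Against TOTAL, 4 internal parts were higher and 0 were lower, where 7 and 8 members and 10.2% and 12.5% of all subfamilies were. The direction was not shared by all: MER92-int was lower in IP than in BO and RLTR14-int was lower than in INPUT.

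MURVY-int, the internal part of the Y-chromosome repeat, had the largest fold change of IP over BO among members. Its normalized counts were 94.1, 53.3 and 123 in BO and 247, 321 and 406 in IP. They were 131, 239 and 240 in TOTAL and 117, 151 and 193 in INPUT. Every IP library was above every library of the other groups, with the lowest IP library, at 247, just above the highest TOTAL library. IP exceeded BO by a log2 fold change of 1.89 ± 0.33 (SE, adjusted p = 0.00084, limma) and INPUT by 1.07 ± 0.33 (adjusted p = 0.028). Over TOTAL it was 0.70 ± 0.33, which did not pass (adjusted p = 0.15). The call against INPUT was lost without replicate 2 (adjusted p = 0.13) and without replicate 3 (adjusted p = 0.077).

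The LTR of the same element moved in the opposite direction. MURVY-LTR had counts of 699, 662 and 646 in TOTAL, 574, 658 and 630 in INPUT, 441, 442 and 438 in BO, and 281, 312 and 266 in IP. IP libraries lay below all BO libraries, which in turn lay below all INPUT and TOTAL libraries. In IP, the log2 fold change was -1.11 ± 0.08 (SE) over INPUT (adjusted p = 3.6e-06, limma) and -1.22 ± 0.08 over TOTAL (adjusted p = 1.9e-06). Against BO it was -0.62 ± 0.08 (adjusted p = 0.00017), which is under the fold threshold. When libraries were scaled to their totals in place of the upper quartile, the value against TOTAL became 0.32, below the median of all subfamilies under that scaling, 1.49. The call against INPUT was also lost under that scaling, with its sign kept, and 0 members were lower there, beside 1.52% of all subfamilies.

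The internal part and the LTR of the same name were also set against each other within each library, as the log2 ratio of the normalized count plus 1 of the one to that of the other. The pairs were formed by name after values had been seen, so the ratios are a description. MURVY-int over MURVY-LTR had a log2 ratio of 0.15 ± 0.41 in IP, against -2.03 ± 0.30 in INPUT, -1.77 ± 0.56 in TOTAL and -2.35 ± 0.62 in BO (SD, n = 3). The MURVY ratio was higher in each IP library than in any other library. RLTR1B-int over RLTR1B gave 2.13 ± 0.13 in IP, 1.19 ± 0.30 in INPUT, 1.08 ± 0.33 in TOTAL and 0.88 ± 0.15 in BO, again without overlap between IP and the rest. For MMERGLN and MERV1 the IP libraries were above INPUT and TOTAL and overlapped BO. MMERGLN-int over MMERGLN_LTR was 4.63 ± 0.27 in IP, 4.53 ± 0.12 in BO, 4.01 ± 0.12 in INPUT and 3.80 ± 0.16 in TOTAL. MERV1_I-int over MERV1_LTR was 2.73 ± 0.14 in IP, 2.35 ± 0.58 in BO, 2.34 ± 0.08 in INPUT and 2.13 ± 0.17 in TOTAL. RLTR14-int over RLTR14 was lower in IP, at 0.07 ± 0.08, than in INPUT, at 0.44 ± 0.09, and in BO, at 0.49 ± 0.02, and overlapped TOTAL, at 0.12 ± 0.15. For MER110 all groups overlapped IP. With 3 libraries against 3, an exact two-sided permutation test cannot go below p = 0.1, and it gave 0.1 wherever the groups did not overlap.

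**Figure D2:**
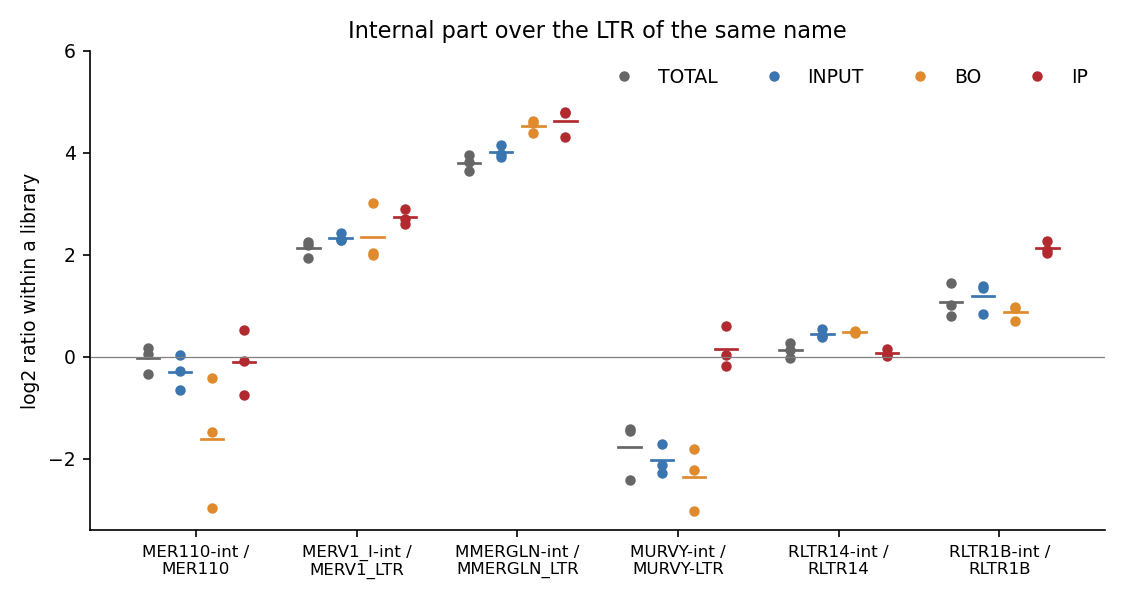
Log2 ratio of the normalized count plus 1 of an internal part to that of the LTR with the same name, for 6 pairs. Each point is a library and bars are means of 3 libraries. The IP libraries of the MURVY and RLTR1B pairs stand above all other libraries, and those of RLTR14 stand below INPUT and BO.

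RLTR1B-int, the internal part named with the RLTR1B LTR, was the most abundant member called higher in IP than in BO. It had counts of 443, 425 and 473 in BO and 985, 926 and 913 in IP. The values were 663, 473 and 499 in TOTAL and 465, 507 and 577 in INPUT, so that IP lay above all 9 other libraries. The log2 fold change was 1.07 ± 0.12 (SE) over BO (adjusted p = 4.3e-05, limma). It was 0.87 ± 0.12 over INPUT (adjusted p = 0.00034) and 0.80 ± 0.12 over TOTAL (adjusted p = 0.00076), both under the fold threshold. Its LTR, RLTR1B, had means of 215 in IP, 243 in BO, 229 in INPUT and 254 in TOTAL, and did not pass the test in any comparison.

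MMERGLN-int, RodERV21-int, MERV1_I-int and RLTR14-int, also abundant internal parts, differed by smaller amounts. MMERGLN-int, the internal part with the highest mean, had counts of 1262, 1177 and 1301 in BO, 1878, 1629 and 1706 in IP, 1475, 1574 and 1727 in INPUT and 1254, 1478 and 1555 in TOTAL. All IP libraries were above BO and TOTAL, and they overlapped INPUT. Its log2 fold change was 0.48 ± 0.10 (SE) over BO (adjusted p = 0.0021, limma), 0.13 ± 0.10 over INPUT (adjusted p = 0.36) and 0.29 ± 0.10 over TOTAL (adjusted p = 0.050), the last of which was 0.14 without replicate 1 (adjusted p = 0.26). RodERV21-int was 0.51 ± 0.10 higher in IP than in BO (adjusted p = 0.0019) and 0.49 ± 0.10 higher than in INPUT (adjusted p = 0.0033). Its means were 656 in IP, 461 in BO, 467 in INPUT and 594 in TOTAL. MERV1_I-int, with an IP mean of 830, had a log2 fold change of 0.40 ± 0.13 over BO (adjusted p = 0.033) and 0.44 ± 0.13 over TOTAL (adjusted p = 0.033). The value over TOTAL was 0.20 without replicate 1 (adjusted p = 0.17), and the adjusted p reached 0.25 over BO without replicate 2. RLTR14-int was the exception among these: its counts were 1276, 1248 and 1236 in INPUT and 941, 912 and 920 in IP, without overlap. IP over INPUT had a log2 fold change of -0.44 ± 0.08 (adjusted p = 0.0014). With scaling to library totals that value was 0.11, beside a median of 0.47 for all subfamilies.

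LTR72_RN, an LTR whose library name carries a rat suffix, was the only member called higher in IP in all 3 comparisons. Its counts were 816, 656 and 584 in IP. They were 206, 219 and 266 in BO, 267, 251 and 263 in INPUT, and 342, 263 and 256 in TOTAL. Every IP library was above all 9 other libraries. The log2 fold change was 1.56 ± 0.15 (SE) over BO (adjusted p = 8.5e-06, limma), 1.38 ± 0.15 over INPUT (adjusted p = 5.3e-05) and 1.25 ± 0.15 over TOTAL (adjusted p = 0.00012). These 3 calls were kept under every alternative setting.

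MER34 names denote an older family, in which 2 of the 4 tested names were called and MER34 and MER34A were not called in any comparison. MER34A1, an LTR, had counts of 709, 716 and 536 in IP, 290, 320 and 269 in BO, 279, 202 and 231 in INPUT and 435, 317 and 334 in TOTAL, with IP above all other libraries. The log2 fold change was 1.15 ± 0.16 (SE) over BO (adjusted p = 0.00019, limma), 1.46 ± 0.16 over INPUT (adjusted p = 5.5e-05) and 0.85 ± 0.16 over TOTAL (adjusted p = 0.0026). MER34B-int, an internal part, had counts of 709, 696 and 509 in IP and 150, 307 and 136 in BO. Its values were 435, 253 and 286 in INPUT and 1239, 551 and 511 in TOTAL, with TOTAL replicate 1 far above the other libraries. IP exceeded BO by 1.77 ± 0.36 (adjusted p = 0.0026), and the excess over INPUT, 0.997 ± 0.36, did not pass (adjusted p = 0.060). Against TOTAL the log2 fold change was -0.16 ± 0.36 (adjusted p = 0.81) and became 0.17 without replicate 1.

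The remaining higher calls were of low counts. LTR68 had counts of 41.2, 25.6 and 27.3 in IP and 13.7, 22.1 and 9.62 in BO, a log2 fold change of 1.05 ± 0.35 (SE, adjusted p = 0.037, limma). MER52-int had 33.8, 24.3 and 24.4 in IP and 12.2, 13.1 and 12.8 in INPUT, a difference of 1.04 ± 0.28 (adjusted p = 0.016). MER92B had 53.0, 102 and 112 in IP and 32.9, 45.7 and 45.4 in INPUT, a difference of 1.04 ± 0.29 (adjusted p = 0.021). Groups did not overlap for any of the 3. However, the LTR68 and MER52-int calls were lost when any replicate was left out, with adjusted p up to 0.20 and 0.12, and the MER92B call was lost without replicate 2 (adjusted p = 0.19) and without replicate 3 (adjusted p = 0.10). LTR68 also lost its call without BO replicate 3 (adjusted p = 0.13).

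**Figure D3:**
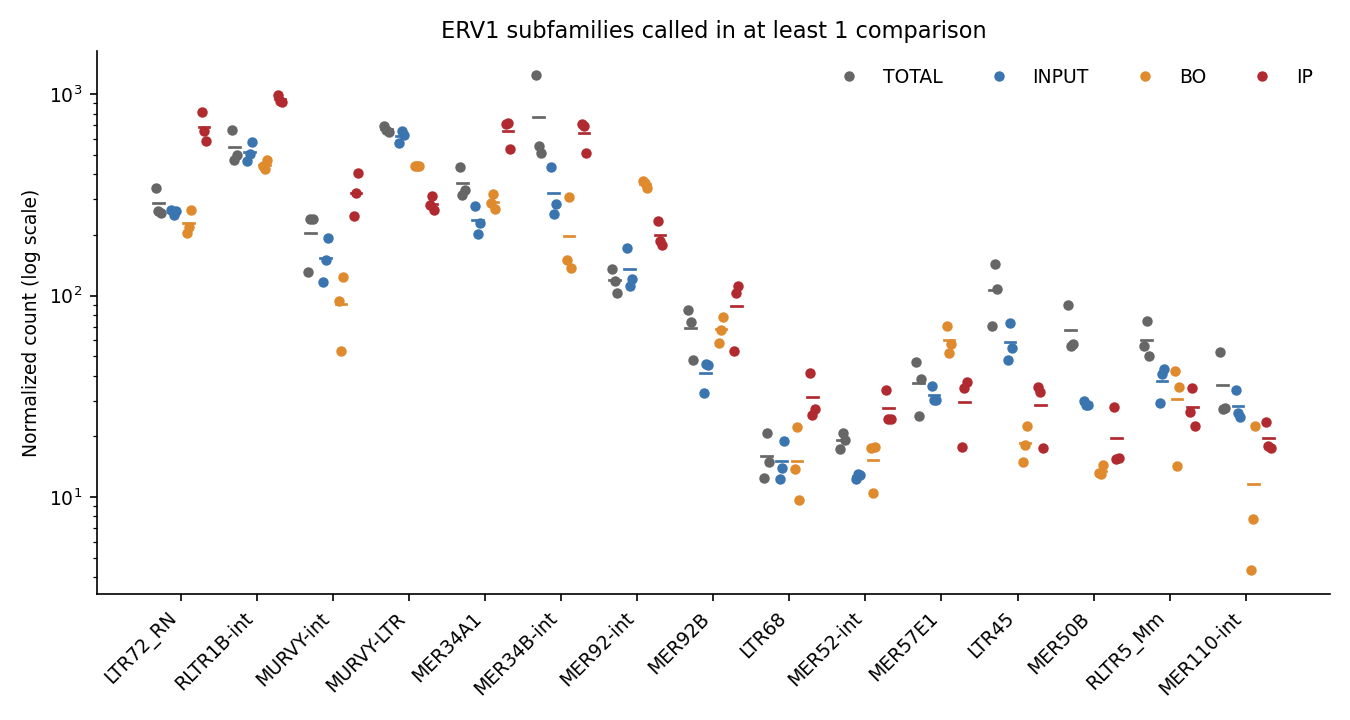
Normalized counts (log scale) of the 15 ERV1 subfamilies called in at least 1 comparison. Each point is a library and bars are means of 3 libraries. IP libraries of LTR72_RN, RLTR1B-int, MURVY-int and MER34A1 lie above all others, IP libraries of MURVY-LTR lie below all others, and MER92-int is highest in BO.

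Besides MURVY-LTR, the lower calls against TOTAL were of rare LTRs. LTR45 had counts of 70.5, 143 and 107 in TOTAL, 47.9, 73.5 and 55.2 in INPUT, 15.0, 18.2 and 22.4 in BO and 35.3, 33.3 and 17.6 in IP. IP and BO overlapped and both lay below INPUT. For IP, the log2 fold change was -1.86 ± 0.32 (SE) over TOTAL (adjusted p = 0.0015, limma) and -1.05 ± 0.32 over INPUT (adjusted p = 0.029), and that of BO over INPUT was -1.61 ± 0.32 (adjusted p = 0.0030). The IP call against INPUT was lost without replicate 2 (adjusted p = 0.17) and without replicate 3 (adjusted p = 0.19), and the BO call without replicate 2 (adjusted p = 0.072). MER50B had counts of 89.7, 56.0 and 57.4 in TOTAL, 30.1, 28.6 and 28.7 in INPUT, 13.1, 13.0 and 14.4 in BO and 27.9, 15.4 and 15.6 in IP. The groups formed a descending series from TOTAL to BO, in which IP and BO did not overlap. IP over TOTAL had a log2 fold change of -1.75 ± 0.27 (adjusted p = 0.00083). RLTR5_Mm had counts of 56.3, 74.6 and 50.0 in TOTAL and 26.5, 34.6 and 22.4 in IP, a difference of -1.09 ± 0.36 (adjusted p = 0.046) that was lost when any replicate was left out, with adjusted p up to 0.18, and with the replicate block (adjusted p = 0.065). Scaled to library totals, the RLTR5_Mm value was 0.42, below the median of 1.49. Under that scaling 0 members were lower in IP than in TOTAL, beside 1.44% of all subfamilies, or than in INPUT, beside 1.52%. The IP calls of LTR45 and MER50B were thus also lost, with their signs kept.

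MER57E1, an LTR, was the only member past both thresholds on the lower side of IP against BO. By the adjusted p alone, 9 of 78 were lower, beside 23.2% of all subfamilies. MER57E1 had counts of 17.6, 34.6 and 37.1 in IP and 70.4, 52.0 and 57.7 in BO, a log2 fold change of -1.05 ± 0.30 (SE, adjusted p = 0.017, limma). Its call was lost when any replicate was left out, with adjusted p up to 0.13, and the log2 fold change was -0.60 without replicate 1.

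MER92-int, the internal part of an older family, was highest in the bead control. It stood higher in BO, with 373, 364 and 342, than in IP, with 234, 186 and 178, INPUT, with 172, 112 and 121, or TOTAL, with 135, 119 and 103. BO was above all 9 other libraries, and IP was above INPUT and TOTAL. Past both thresholds it was the only ERV1 subfamily higher in BO than in INPUT, beside 2.63% of all subfamilies, with a log2 fold change of 1.43 ± 0.17 (SE, adjusted p = 0.00012, limma). The difference of IP was -0.86 ± 0.17 from BO (adjusted p = 0.0019), 0.58 ± 0.17 from INPUT (adjusted p = 0.024) and 0.74 ± 0.17 from TOTAL (adjusted p = 0.0088). These differences kept their signs with 1 replicate left out, but the limma adjusted p reached 0.061, 0.23 and 0.095. By the adjusted p alone, 6 of 78 members were higher in BO than in INPUT, beside 17.2% of all, and 13 were lower, beside 11.7%. LTR37-int was 1 of the 6 and was also higher in IP than in INPUT by the adjusted p, with means of 115 in BO and 121 in IP against 62.1 in INPUT and 105 in TOTAL. Its log2 fold change over INPUT was 0.87 ± 0.16 in BO (adjusted p = 0.0017) and 0.94 ± 0.16 in IP (adjusted p = 0.0010), both under the fold threshold. Lower in BO than in INPUT were 3 subfamilies, LTR45, MER50B and MER110-int, beside 2.8% of all. MER50B fell by 1.05 ± 0.27 (adjusted p = 0.012), a call lost without replicate 2 (adjusted p = 0.14) and without replicate 3 (adjusted p = 0.089). MER110-int had counts of 4.36, 7.81 and 22.4 in BO and 33.8, 26.1 and 24.9 in INPUT, with a log2 fold change of -1.49 ± 0.47 (adjusted p = 0.031) that was not called without replicate 1 (adjusted p = 0.18) or replicate 2 (adjusted p = 0.25).

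INPUT and TOTAL differed at few ERV1 subfamilies after the upper quartile normalization. In INPUT against TOTAL, limma called 0 members higher, beside 0% of all subfamilies, and 0 lower, beside 0.339%. With libraries scaled to their totals, 37 were higher, beside 54.0%, and 0 were lower, beside 0.424%. The median log2 fold change of all subfamilies was 1.03 under that scaling. At an unadjusted p under 0.05, 4 of 78 were higher, beside 9.07% of all subfamilies, and 9 were lower, beside 7.97%. By edgeR on the recovered reads, 0 were higher, beside 0%, and 1 was lower, beside 0.508%. That member was MER50B, whose log2 fold change was -1.16 ± 0.27 (SE) in limma (adjusted p = 0.060), -1.24 in edgeR (adjusted p = 0.041) and -1.16 with the replicate number as a block (adjusted p = 0.032). By the adjusted p alone, 0 members were higher and LTR37-int was lower in INPUT, beside 0.847% of all subfamilies in each direction, with counts of 67.6, 62.9 and 55.9 against 105, 105 and 106 in TOTAL (log2 fold change -0.76 ± 0.16, adjusted p = 0.035). With 1 replicate left out, its limma adjusted p reached 0.44, at log2 fold changes between -0.83 and -0.68. Its sign reversed when libraries were scaled to their totals.

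The most abundant ERV1 LTRs differed little between the groups. RMER5, a rodent LTR with the highest mean, 2548, had means of 2466 ± 142 in IP, 2730 ± 182 in BO, 2523 ± 113 in INPUT and 2472 ± 137 in TOTAL (SD, n = 3). Its log2 fold change of IP over BO was -0.15 ± 0.07 (SE, adjusted p = 0.15, limma). MLTR14 had means of 1904 ± 81.5 in IP, 1673 ± 73.8 in BO, 1960 ± 95.7 in INPUT and 1940 ± 10.6 in TOTAL, and RLTR14 had 883 ± 33.3, 730 ± 66.6, 923 ± 41.3 and 927 ± 65.9. Against BO, these were 0.19 ± 0.06 (adjusted p = 0.041) and 0.28 ± 0.09 (adjusted p = 0.024) higher in IP. With 1 replicate left out, the limma adjusted p reached 0.33 for MLTR14 and 0.22 for RLTR14. For both, IP and INPUT overlapped. Among the members not called, 54 of 71 in IP against BO, 53 of 71 in IP against INPUT and 52 of 73 in IP against TOTAL had a log2 fold change under 0.5 in size.

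Single loci were described from the group means that the authors gave per locus, with no value per library. The authors' tests of loci were not used, and no error or test is given for them here. The tables of BO, INPUT and TOTAL were scaled separately, so IP means differ between them by a factor of about 1.31 and values are compared within a table only. Most loci were not seen in IP: the IP mean was listed at 0 for 5526 of 9714 (56.9%). The value was 0 for 66.4% in BO, 53.6% in INPUT and 54.1% in TOTAL. A mean of at least 10 in the table with BO was reached by 69 loci in IP and 95 in BO. Neither these counts nor the shares at 0 were computed over all repeat loci, so they are not read as a trait of ERV1. The 10 highest loci held 17.3% of the summed IP mean and the 100 highest held 41.4%.

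Among loci with a mean of at least 10 over both groups, 10 of 77 had an IP mean over 2 times the BO mean, beside 17.8% of all repeat loci, and 33 had one under 0.5 times, beside 49.2%. In the table with INPUT, 24 of 101 were over 2 times, beside 23%, and 23 were under 0.5 times, beside 32.2%. In the table with TOTAL, 18 of 87 were over 2 times, beside 25.4%, and 8 were under 0.5 times, beside 25.8%. The median log2 ratio of all repeat loci in the table with BO was -0.95, and relative to that median 22 of the 77 ERV1 loci were over 2 times the BO mean, beside 30.8% of all loci, and 11 were under 0.5 times, beside 28.0%.

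Of the 5 loci with the highest IP means beside BO, MLTR14_6692 was an LTR and the rest were internal parts of MMERGLN or MERV1_I. MMERGLN-int_82 had an IP mean of 195 against 107 in BO, 255 against 199 in INPUT and 254 against 187 in TOTAL. MMERGLN-int_54, the next highest, was level, with 136 against 134 in BO, 179 against 179 in INPUT and 178 against 205 in TOTAL. MMERGLN-int_181 stood apart from both, with an IP mean of 113 against 12.4 in BO, 148 against 26.8 in INPUT and 148 against 25.3 in TOTAL, which are ratios of 9.10, 5.51 and 5.83. Loci of 1 subfamily thus differed widely: MMERGLN-int_227 had 42.6 in IP against 125 in BO. MERV1_I-int_132 was 2.93 times BO, 2.14 times INPUT and 3.50 times TOTAL, while MERV1_I-int_538 was at 39.6 in IP against 127 in INPUT. RLTR14_1392 was 3.63, 3.24 and 4.34 times BO, INPUT and TOTAL. MLTR14_6692 had an IP mean of 107 against 91.3 in BO, 140 against 83.8 in INPUT and 140 against 69.5 in TOTAL.

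Among loci with a mean of at least 50 over both groups, the lowest ratios to BO were at RMER5_4907 and RMER5_4906, which have consecutive numbers. Their IP means were 8.61 and 17.4 against BO means of 93.8 and 113. Against INPUT they were not low, at 11.2 against 6.01 and 22.7 against 9.10, so these were high in the bead control. RLTR24_572 was low in each table, with 27.0 against 98.2 in BO, 35.4 against 143 in INPUT and 35.2 against 67.2 in TOTAL. RLTR14-int_494 and RLTR14-int_493, again with consecutive numbers, had IP means of 67.0 and 47.4 against INPUT means of 254 and 152. These 2 loci were also lower than BO, at ratios of 0.32 and 0.34. Other RMER5 loci were higher in IP: RMER5_5825 was 2.45, 5.38 and 7.19 times BO, INPUT and TOTAL, and RMER5_4035 was 7.74, 4.77 and 2.17 times.

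**Figure D4:**
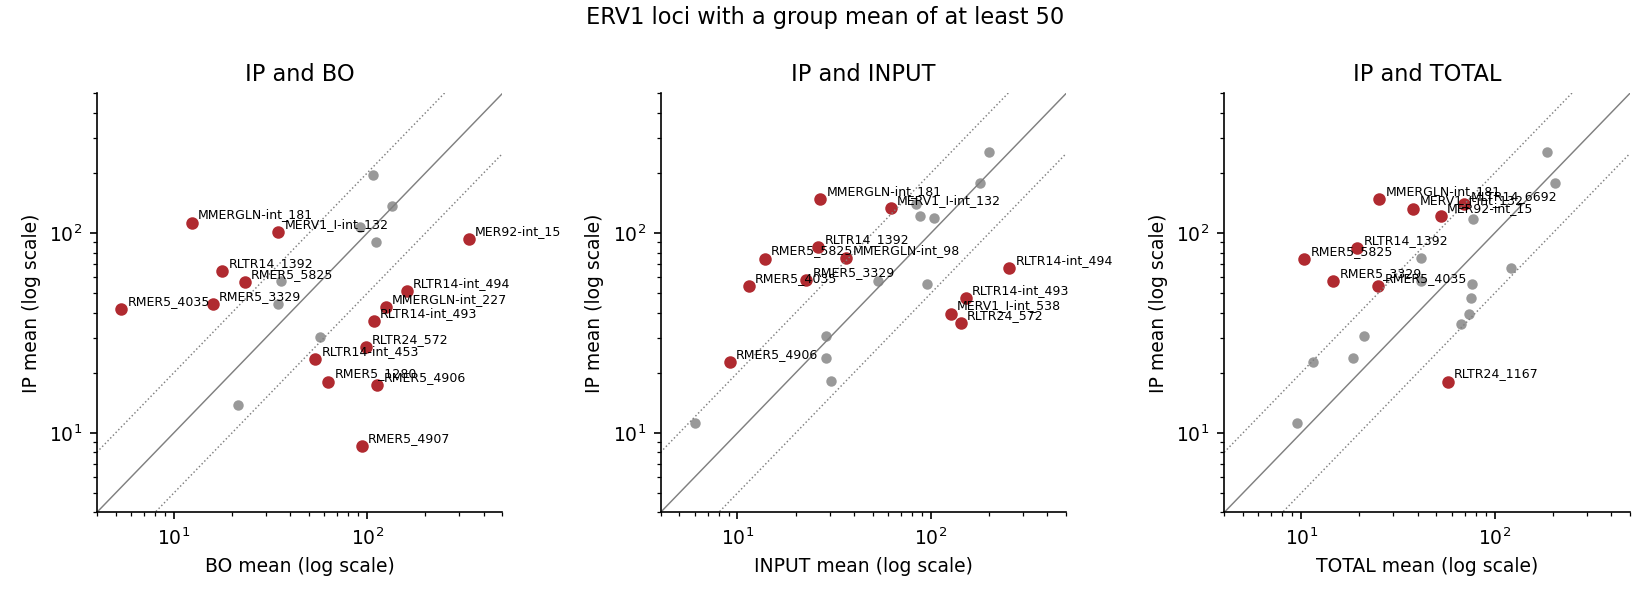
Group means of the 23 ERV1 loci named by rule or with a mean of at least 50 in a table, IP against BO, INPUT and TOTAL on log axes. The solid line marks equal means, dotted lines mark ratios of 2 and 0.5, and red loci lie outside them. MMERGLN-int_181 and RLTR14_1392 lie above the upper line in each panel, and RMER5_4906 and RMER5_4907 lie below the lower line only against BO.

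For some subfamilies the listed loci did not follow the subfamily count. The subfamily and locus tables are scaled differently, so the share of a subfamily count that its listed loci sum to is only comparable between names. Its median over 979 subfamilies was 28.2% for IP and 37.5% for BO in the table with BO, and 26.6% and 32.8% over ERV1 members. For LTR72_RN it was 3.53% in IP and 15.5% in BO. The 139 listed LTR72_RN loci summed to 24.2 in IP and 35.7 in BO, a ratio of 0.68, where the subfamily means gave 2.98. Against INPUT the ratios were 0.79 for loci and 2.63 for the subfamily, and against TOTAL they were 0.64 and 2.39. The numbers in the LTR72_RN identifiers run to 986, so the listed loci may be only some of those that make up the subfamily count, and how loci were selected and shared reads counted in the locus tables is not given in the sources used here. The same limit holds for the other subfamilies.

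The called members varied in how far their listed loci followed the subfamily. MURVY-int loci gave ratios of 1.61 to BO, 0.56 to INPUT and 0.49 to TOTAL, where the subfamily gave 3.60, 2.11 and 1.60. RLTR1B-int loci gave 0.87, 1.21 and 1.24, where the subfamily gave 2.11, 1.82 and 1.73. MER34A1 loci, of which MER34A1_504 alone held 82.9% of the IP sum, gave 0.79, 1.11 and 1.47, where the subfamily gave 2.23, 2.75 and 1.81. The listed MER34B-int loci summed to 1.43% of the subfamily count in IP, and their ratios were 2.91 to BO, 1.75 to INPUT and 1.93 to TOTAL, where the subfamily gave 3.23, 1.97 and 0.83. MER52-int loci gave 2.66, 2.39 and 2.36 and LTR68 loci gave 1.34, 2.06 and 1.53, where the subfamilies gave 1.81, 2.17 and 1.44, and 2.07, 2.09 and 1.96. MER57E1 loci, summing to a normalized count of 7.74 in IP and 5.215 in BO, gave 1.48 to BO where the subfamily gave 0.50. The 4 listed LTR45 loci summed to only 1.59 in IP and 0.244 in INPUT, too low for their ratio of 6.51 to be read against the 0.49 of the subfamily. The listed loci of MER110-int, at 2.755 in IP and 1.004 in BO, and of MER50B, at 0.249 and 0.838, were as low. For MURVY-LTR both measures were low, at 0.49, 0.43 and 0.36 for loci and 0.65, 0.46 and 0.43 for the subfamily. The loci of MMERGLN-int, at 1.13, 1.06 and 1.24, were close to its subfamily ratios of 1.39, 1.09 and 1.22. Most of the listed MER92-int sum was at a single locus: MER92-int_15 had a BO mean of 336 against 93.3 in IP and held 93.7% of the BO sum. Its share was 75.4% of the IP sum in the same table, 80.3% in INPUT and 72.9% in TOTAL.

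**Figure D5:**
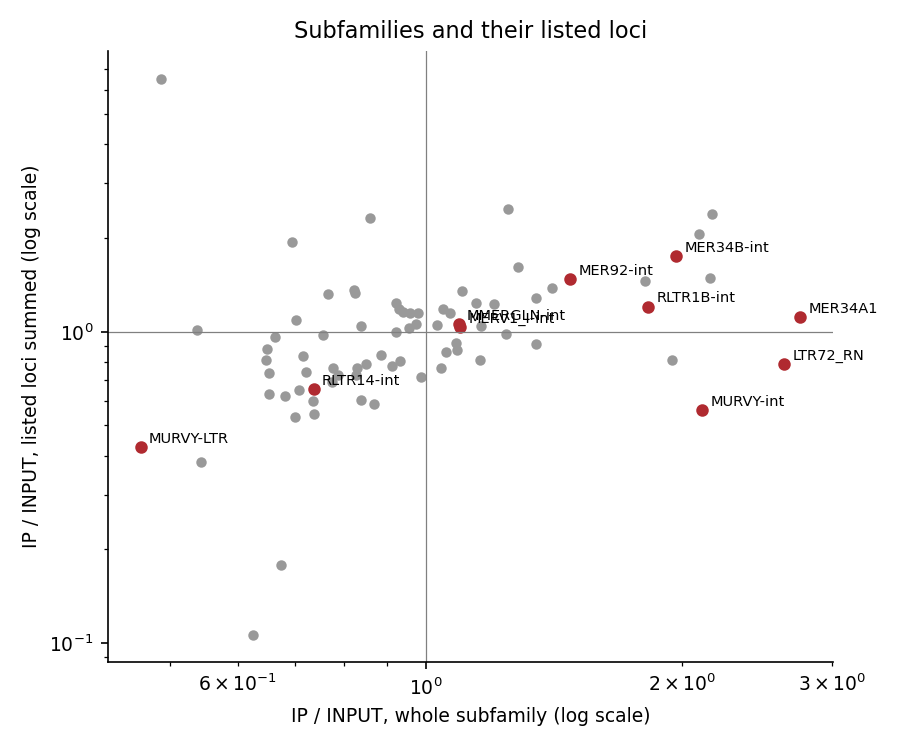
Ratio of IP to INPUT for the 78 tested ERV1 subfamilies, from the subfamily means (x axis, log scale) and from the summed means of the listed loci (y axis, log scale). Each point is a subfamily and lines mark a ratio of 1. LTR72_RN and MURVY-int lie at 2.63 and 2.11 on the x axis and at 0.79 and 0.56 on the y axis, while MURVY-LTR is low on both.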

How the data were processed

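The 12 RNA-seq libraries of Mael-/- testes (IP, BO, INPUT and TOTAL) were analysed from the deposited tables, with groups and replicate numbers from the labels. The design text calls the replicates biological, and the labels do not say which libraries share animals. For repeats, the authors used STAR v2.6.0c for alignment to mm10, keeping up to 100 hits per read, reassigned ambiguous reads with Telescope, summed them per subfamily and scaled them with EBSeq. The strand setting of this step is not given in the sources used here, and the loci were not placed in genes. Reads of a repeat and of a transcript that contains it therefore cannot be told apart. The deposited signal is the upper quartile normalized count per subfamily and library. Each value was a whole multiple of 1 step per library (100% within 0.1 of a whole read), from which reads were recovered. The locus tables made with DESeq2 v1.24.0 hold, as deposited signal, the mean normalized count of each locus and group. They also hold the authors' fold changes and p-values, which were not used.

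The 1180 subfamilies whose mean over 12 libraries reached 10 (78 of them ERV1) were fitted as log2(value + 1) with limma 3.58.1 (lmFit, eBayes with a trend, R 4.3.3) in 1 fit of 4 groups, with Benjamini-Hochberg adjustment over all 1180. Fold changes are on the log2(value + 1) scale, which understates those of low counts. A call required a log2 fold change past 1 in size and an adjusted p under 0.05. The comparisons were IP with BO, INPUT and TOTAL, INPUT with TOTAL, and BO with INPUT. The code was tested on simulated data. Named were members called in any comparison, internal parts with a mean of at least 100 and the 5 highest members. Named loci were the 5 highest in IP beside BO and, per table, the 3 highest and 3 lowest ratios among means of at least 50, and other loci with such a mean were named after their values were seen. So were RLTR1B and MER92-int_15. Members, lists and rules were chosen with earlier results of these data known. The settings varied were the pseudocount (0.1 or 10), the minimum mean (none or 100) and the scaling (library totals or median ratio), along with edgeR 4.0.16 on recovered reads, a replicate block, the compared groups only, and leaving out replicates. Deviations of same-numbered libraries correlated at 0.63, 0.34 and 0.32 between TOTAL and INPUT, so the numbers may pair these groups, which the labels do not state. Over all groups, 8 of the 12 libraries correlated best on average with those of their own number. The main fit used no pairing. In no other pair of groups did all 3 correlations pass 0.1. The loci were not placed on the genome or in genes here, and no repeat sequence is printed.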

Additional observations from a re-analysis of the deposited data

How the results depend on the processing

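Of 23 calls of an ERV1 subfamily in a comparison, 9 were kept under every setting that tested them and 21 kept their sign. LTR72_RN kept its 3 calls. Scaling to library totals raised the median of all subfamilies to 0.36 in IP over BO, 0.47 over INPUT and 1.49 over TOTAL, and to 1.03 in INPUT over TOTAL, so counts under it follow that shift. It gave 11 higher (10.7% of all subfamilies under the same setting, as for each percentage of subfamilies that follows in parentheses) and 0 lower (1.52%) in IP against INPUT, 62 higher (85.9%) and 0 lower (1.44%) against TOTAL, 0 lower against BO (1.44%), 37 higher in INPUT against TOTAL (54.0%) and 1 lower in BO against INPUT (1.78%). It reversed LTR37-int in INPUT over TOTAL (0.23), MER34B-int (1.39), MURVY-LTR (0.32) and RLTR5_Mm (0.42) in IP over TOTAL, RLTR14-int in IP over INPUT (0.11) and RMER5 in IP over BO (0.35). The median ratio gave 0 lower against BO (2.80%), and 8 higher (4.24%) and 1 lower (2.37%) against INPUT. The edgeR test on recovered reads gave 0 lower against BO (2.97%), 1 lower against INPUT (2.63%) and 1 lower in INPUT against TOTAL (0.508%). A pseudocount of 10 gave 0 lower against BO (3.05%), 3 higher (2.12%) and 1 lower (2.29%) against INPUT, and 1 lower in BO against INPUT (2.12%). A mean of at least 100, which 45 members reached, gave 0 lower against BO (3.59%), 3 higher (3.19%) and 1 lower (2.53%) against INPUT, 1 lower against TOTAL (3.19%) and 0 lower in BO against INPUT (2.26%). With no filter, 3 of 116 were lower against BO (3.73%) and 3 higher against TOTAL (2.42%). Without BO replicate 3, an alternative chosen after seeing the data, 2 were lower against BO (4.32%) and 6 were higher against INPUT (3.39%).

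Leaving out 1 replicate number at a time gave 1 to 2 lower against BO (3.22 to 4.83%), 2 to 5 higher (1.61 to 2.63%) and 1 to 2 lower (2.29 to 2.88%) against INPUT, 1 to 2 higher in BO against INPUT (1.36 to 2.88%) and 0 to 3 lower in BO against INPUT (1.70 to 3.48%). Without replicate 2 or 3, 2 were higher in IP than in INPUT, and without replicate 2 limma called 0 lower in BO than in INPUT (with all libraries, 17 were at an unadjusted p under 0.05, beside 16.4% of all subfamilies). MER34B-int in IP over TOTAL reversed to 0.17 without replicate 1, and its values ranged from -0.40 to 0.17. Some other differences under an adjusted p of 0.05 with all libraries rose above 0.05 when 1 replicate was left out. The highest limma adjusted p was 0.063 for MMERGLN-int in IP over BO. It was 0.072 for RodERV21-int and 0.075 for RLTR14-int in IP against INPUT. For MER34A1 in IP over TOTAL it was 0.083, and for LTR37-int in BO over INPUT 0.067. With the replicate block, 1 member was lower in INPUT than in TOTAL (0.424%), and of the pairs of a member and a comparison that the text names, it ended the call of RLTR5_Mm against TOTAL alone (adjusted p = 0.065). Of 13 loci with a mean of at least 50, 2 were over 2 times and 7 under 0.5 times BO (20.7% and 52.2% of all loci). For INPUT they were 4 and 4 of 15 (25.2% and 26.5%), and for TOTAL 5 and 0 of 14 (30.2% and 23.8%). Centring on the median locus gave 22 over 2 times and 11 under 0.5 times BO of 77 (30.8% and 28.0% of all loci). Low counts limit the rare members: MER52-int, LTR68 and MER110-int had means under 25 over the libraries. For the single loci, no value per library was used and no spread was computed.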
